A study of Homo sapiens with 9 samples.

Results

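The 43 genes described here code for SR proteins, heterogeneous nuclear ribonucleoproteins (hnRNPs) and proteins that act beside them in pre-mRNA splicing. They were taken from a fixed list of symbols, matched through Ensembl identifiers, and are 43 of the 60675 genes counted in every library. All 43 passed the filter on low counts, which left 19278 genes to be tested. The list holds 12 SR proteins, 2 TRA2 proteins, 17 hnRNPs, 3 polypyrimidine tract binding proteins, 2 SR kinases, 3 factors that recognise the 3′ splice site and 4 tissue-restricted or signal-dependent regulators. The rule that lists them uses no measured value, but the list was chosen with earlier results of these data known.

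SR proteins bind enhancer sequences in exons through RNA recognition motifs and recruit the spliceosome through a domain rich in arginine and serine, which kinases of the SRPK and CLK families phosphorylate. Many hnRNPs bind silencer sequences and oppose them, so the balance of both groups helps to set which exons are kept. In prostate cancer cells these factors are studied for the variant transcripts they give rise to, and the nuclear m6A mark, which METTL3 writes, can alter where several of them bind. Gene counts measure the RNA level of each factor and not splicing itself.

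The libraries are RNA-seq of LNCaP:C42 (also written LNCaP:C4-2), a castration-resistant prostate cancer line derived from LNCaP. Its 3 groups hold 3 libraries each. The control, shScramble, carries a non-targeting short hairpin RNA, and the others carry the hairpins shMETTL3 guide 2 or shMETTL3 guide 1 against the methyltransferase METTL3. In every group a lentiviral pLKO.1-puro construct, which the paper names Tet-pLKO-puro, was used and stable cells were selected with 1 μg/mL puromycin. Cells were grown in 10% charcoal-stripped serum, which is depleted of androgen, and received 1 μg/mL doxycycline for 6 days to induce the hairpin, although the sample titles read vehicle. The study calls the selected cells clones and gives no number of clones for each group, and nothing says that the 3 libraries of a group came from separate selections. The p-values therefore measure only the spread between these libraries, and an effect of the hairpin and a difference between selected cells cannot be told apart.

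The strands of both hairpins that can act on other transcripts are shown because a match to bases 2 to 8 of the antisense strand is the usual route of unintended effects. They are written 5′ to 3′, with those bases, the seed, in capitals.
guide 2 antisense strand: aTAATTCGtctgaagtgcagc
guide 1 antisense strand: aACTTGCCcaagatactgacg
The complement of the guide 2 seed, CGAATTA, occurred on the transcript strand of the 3′ untranslated region of SRSF10 and PTBP3 among the 43 members, and in 1.47% of 14329 tested genes with such a region. The complement of the guide 1 seed, GGCAAGT, occurred in SRSF10 and HNRNPA0, and in 8.33% of the same genes. Each match is shown with 8 bases on either side and the match in capitals, since these are the only members in which one was found.
SRSF10, guide 2: tacaagtaCGAATTAtggacaaa
PTBP3, guide 2: aacagtagCGAATTAcaccaaaa
SRSF10, guide 1: taatacgaGGCAAGTtgtaagac
HNRNPA0, guide 1: ttcaaagtGGCAAGTttgctaag
The log2 fold change was 0.015 for SRSF10 and 0.57 for PTBP3 with guide 2, and 0.52 for SRSF10 and -0.0015 for HNRNPA0 in the libraries labelled guide 1. A part of such matches in any difference was not tested.

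METTL3 was measured first as a check of the labels. Its level, in counts relative to the TMM-scaled library total (CPM), was 29.8, 31.7 and 32.9 in shScramble, 16.5, 16.5 and 15.8 with guide 2 and 29.3, 30.1 and 29.6 in the libraries labelled guide 1. It was lowered with guide 2 (log2 fold change -0.95 ± 0.069 (SE), adjusted p = 2.97e-12), whereas the difference with guide 1 did not pass the test (-0.083 ± 0.063 (SE), adjusted p = 0.251). The latter are therefore named by their label throughout. Library totals ranged from 21899501 to 30897639 counts, and 28459 to 29586 genes had a count in shScramble, 24884 to 26505 with guide 2 and 29193 to 29628 in the libraries labelled guide 1. The summed level of 7 luminal prostate markers was 2609 to 2633 CPM in shScramble, 2965 to 3096 with guide 2 and 1336 to 1373 in the libraries labelled guide 1. The markers differed among themselves with guide 2, where HOXB13 (0.78), STEAP2 (0.43) and TMPRSS2 (0.20) were higher and KRT8 (-0.14, adjusted p = 0.00883) and KLK2 (-0.36, adjusted p = 0.0101) lower by edgeR's adjusted p. The sum of 5 basal or mesenchymal markers was 22.9 to 24.0, 3.67 to 3.74 and 134 to 171 CPM, of which VIM was above the floor of 3 counts in every library, CD44 in every library except 2 with guide 2, and KRT5, KRT14 and TP63 were at or under it in all 9. In bulk libraries such as these, fewer cells of a kind and less RNA per cell cannot be told apart.

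Few of the splicing factors differed by a large amount with guide 2. A gene was called raised or lowered where it passed both an adjusted p of 0.05 (Benjamini-Hochberg, over all tested genes) in edgeR's quasi-likelihood test and a 1.5-fold change. With guide 2, 6 of 43 members (14.0%) were called, against 29.3% of all tested genes. HNRNPA1 and HNRNPD were raised (2 of 43, against 8.85% of all tested genes), and SRSF12, U2AF1, CLK1 and PTBP2 were lowered (4 of 43, against 20.4%). Scaled by library size only, 0 were raised and 6 lowered. The share of all tested genes called under that scaling was not worked out, here or below. That scaling moves the median of all tested genes from -0.042 to -0.19 on the log2 scale, and both raised genes are then no longer called. By adjusted p alone 23 members were higher (30% of all tested genes) and 9 lower (31.7%), which is 32 of 43 against 61.8% in either direction. The median log2 fold change of the members was 0.17, and the groups of libraries did not overlap for 34 of the 43, against 66.5% of all tested genes.

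In the libraries labelled guide 1, 15 members were raised and 0 lowered by edgeR, and 16 and 0 by DESeq2. The edgeR count is 34.9% of members, against 37.7% of all tested genes called in either direction, 21.2% raised and 16.5% lowered. Those raised were SRSF1, SRSF4, SRSF7 and SRSF12, the hnRNP genes HNRNPAB, HNRNPD, HNRNPDL, HNRNPH3 and HNRNPUL1, then PTBP1, PTBP3, SRPK1, RBFOX2, QKI and KHDRBS1. At an unadjusted p under 0.05 and any fold, 32 were higher and 5 lower, and the share of all tested genes at that limit was not worked out. By adjusted p alone 32 members were higher (35.4% of all tested genes) and 5 lower (33%), against 68.4% in either direction. The median of the members was 0.41 where that of all tested genes was -0.017. The groups did not overlap for 36 members, against 71% of all tested genes. In the direct comparison of guide 2 with the libraries labelled guide 1, 17 members differed, against 47.3% of all tested genes. Of these 3 were higher with guide 2 (19.1% of all tested genes) and 14 lower (28.2%), a split of 1 and 17 when scaled by library size only. By adjusted p alone 10 were higher (34.7% of all tested genes) and 30 lower (39.9%), against 74.6% in either direction, and 41 did not overlap (75.8%). Both comparisons with shScramble share its 3 libraries.

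**Figure D1:**
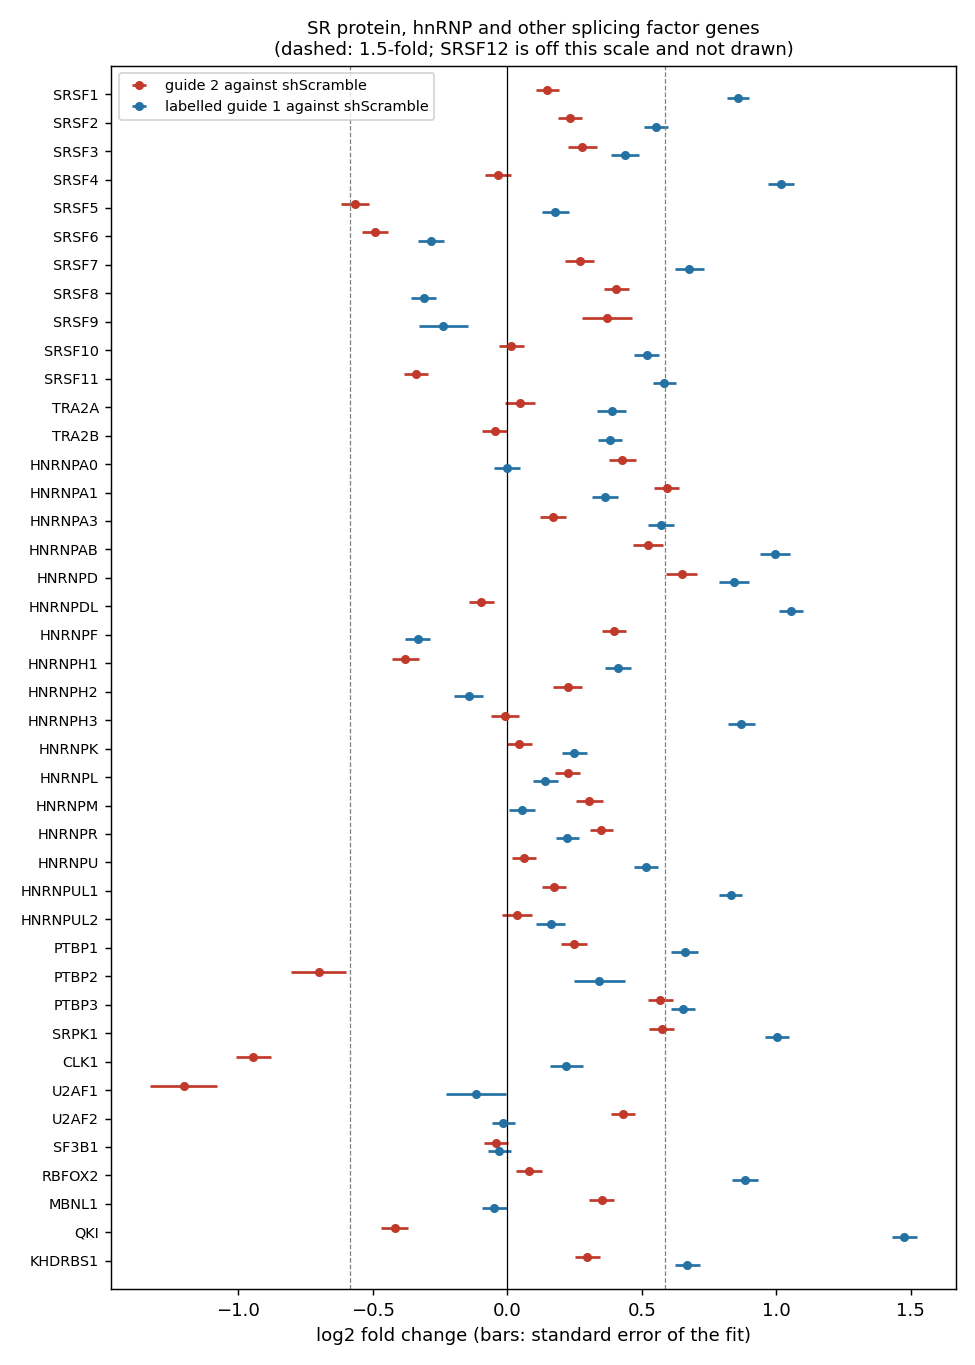
Log2 fold change of each member but SRSF12 (x axis) with guide 2 (red) and in the libraries labelled guide 1 (blue) against shScramble, with bars for the standard error and dashed lines at 1.5-fold. Most blue points lie to the right of 0, QKI farthest at 1.48, and U2AF1 and CLK1 lie farthest left among the red points at -1.20 and -0.94.

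Expressed as a share of all counts, the 43 members took 1.01% ± 0.019 (SD, n = 3) of the shScramble libraries, 1.04% ± 0.014 with guide 2 and 1.31% ± 0.026 in the libraries labelled guide 1. Without HNRNPA1 the shares were 0.901%, 0.894% and 1.18%. Per kilobase of exon (RPKM), the most abundant members in shScramble were HNRNPA1 at 197 ± 0.869, HNRNPK at 183 ± 4.16 and HNRNPF at 136 ± 3.83. The lowest were PTBP2 at 1.69 ± 0.0959, U2AF1 at 0.875 ± 0.109 and SRSF12 at 0.209 ± 0.0531. All 3 were among the 4 members lowered with guide 2. The U2AF1 value may describe only part of its reads, as 88.3% of 100-base windows of its exons occur unchanged in a second locus. It was also scaled to an annotated exon length of 11112 bases, so its place in this order is uncertain. HNRNPA3 and SRSF6, in neighbouring places at 61.7 ± 1.29 and 61.6 ± 4.28, did not differ beyond their spread.

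**Figure D2:**
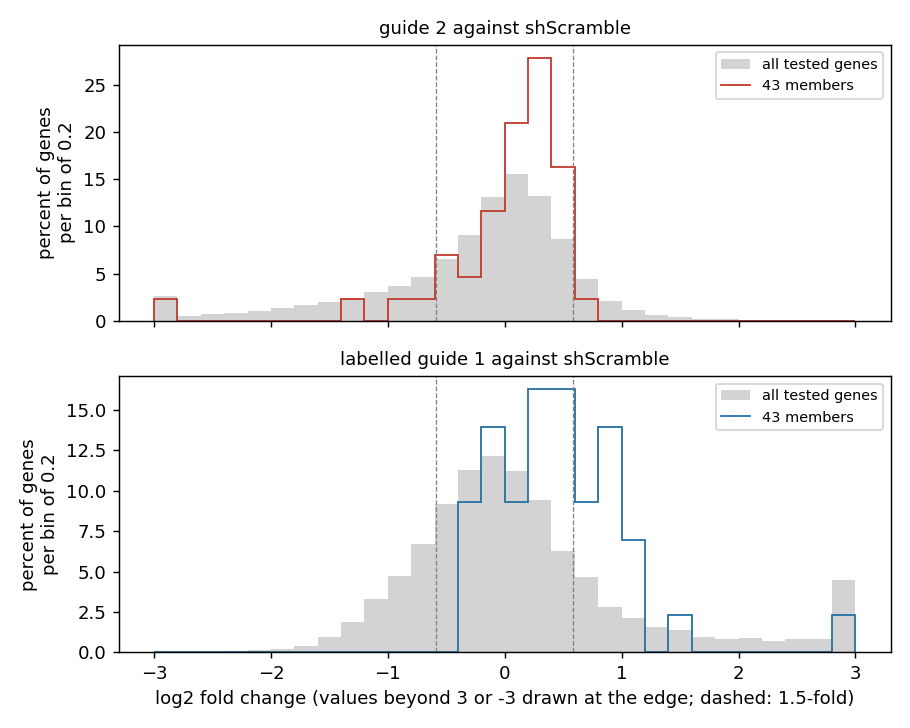
Share of the 43 members (coloured line) and of all 19278 tested genes (grey) in each bin of log2 fold change, for guide 2 and for the libraries labelled guide 1 against shScramble. With guide 2 the members have a median of 0.17 against -0.042 for all genes and a median absolute change of 0.30 against 0.39, and in the libraries labelled guide 1 they lie to the right of them, with a median of 0.41.

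Of the SR proteins, SRSF12 had the largest difference of any member. SRSF12, an SR-related protein close to SRSF10 that can act as a splicing repressor, was counted 24, 27 and 28 times in shScramble, 0, 1 and 5 times with guide 2 and 412, 322 and 360 times in the libraries labelled guide 1. The groups did not overlap in any pair, and 2 of the 3 guide 2 libraries lay under the floor of 3 counts. It was lowered with guide 2 (log2 fold change -3.37 ± 0.51 (SE), adjusted p = 2.59e-06) and raised in the libraries labelled guide 1 (3.77 ± 0.19 (SE), adjusted p = 7.94e-16), the only member called in opposite directions. Among all tested genes 9.18% were called in opposite directions by the hairpins. The fitted value with guide 2 depends on the prior count at such low counts, and it was -5.20 without guide 2 replicate 3 and -2.82 to -3.49 without any other library. As a ratio of summed counts, 79 in shScramble and 6 with guide 2, the log2 ratio of shScramble to guide 2 per total count was 3.58 (95% exact interval 2.40 to 5.07, counting error only). The mesenchymal marker VIM moved in the same order, at 22.3, 23.6 and 23.5 CPM in shScramble, 3.60, 3.51 and 3.58 with guide 2 and 169, 132 and 156 in the libraries labelled guide 1, and its part in the difference of SRSF12 was not tested.

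The region before the start of SRSF12 is shown because this gene had the largest difference. It is the 250 bases upstream of the RefSeq start at chr6:89118072-89118321 on the minus strand of GRCh38.p14, with CG dinucleotides, the sites of DNA methylation, in capitals.
SRSF12 upstream region: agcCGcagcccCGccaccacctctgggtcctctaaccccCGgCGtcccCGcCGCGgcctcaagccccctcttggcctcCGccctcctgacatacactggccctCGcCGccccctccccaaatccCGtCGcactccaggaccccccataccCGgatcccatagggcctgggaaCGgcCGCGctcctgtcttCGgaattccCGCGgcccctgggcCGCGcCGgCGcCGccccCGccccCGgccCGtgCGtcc
It holds 28 CG dinucleotides, against a median of 11 over all 34788 upstream regions of the table. The entries of the 38 members found in it had a median of 25, with several entries for 14 of these members. Methylation was not measured in these libraries.

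SRSF1, which binds purine-rich enhancers and is a known oncogene, had 189, 187 and 189 CPM in shScramble, 209, 214 and 204 with guide 2 and 339.8, 347 and 339 in the libraries labelled guide 1. A rise was called in the latter (0.86 ± 0.042 (SE), adjusted p = 2.44e-16), while the value with guide 2 was under the fold limit (0.15). Of its exon bases 13.2% lie under a gene on the other strand. SRSF4, a larger SR protein with paired RNA recognition motifs, had 116, 111 and 114 CPM in shScramble, 111, 111 and 110.2 with guide 2 and 248, 220.3 and 219 in the libraries labelled guide 1. Its level rose in the libraries labelled guide 1 (1.02 ± 0.048 (SE), adjusted p = 1.05e-16), and its guide 2 values overlapped those of shScramble. SRSF7, an SR protein with a zinc knuckle, had 93.2, 97.6 and 107 CPM in shScramble, 119.9, 121 and 117 with guide 2 and 172, 152 and 151 in the libraries labelled guide 1, where it was raised (0.68 ± 0.053 (SE), adjusted p = 7.75e-12). That call was lost in a test against the 1.5-fold limit itself (adjusted p = 0.0531).

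SRSF5, which resembles SRSF4 and SRSF6 in its domains, had 167, 172 and 182 CPM in shScramble, 121, 115 and 116 with guide 2 and 214, 188 and 187 in the libraries labelled guide 1. The guide 2 libraries were the lowest and overlapped neither other group. Its log2 fold change with guide 2, -0.57 ± 0.052 (SE), adjusted p = 2.95e-10, lay just under the fold limit and was not called, but it passed with library size alone (-0.72). It was lower with guide 2 than in the libraries labelled guide 1 (-0.74 ± 0.052 (SE), adjusted p = 2.65e-13). SRSF11, an SR-related protein that interacts with U2AF, had 254, 259 and 275 CPM in shScramble, 206, 209.7 and 208 with guide 2 and 395, 394 and 391 in the libraries labelled guide 1, so the guide 2 libraries lay below and those labelled guide 1 above shScramble. Neither difference from shScramble was called (-0.34 and 0.58), but the direct difference was (-0.92 ± 0.044 (SE), adjusted p = 6.86e-17). The value in the libraries labelled guide 1 lay at the fold limit and was called by DESeq2 (0.59), with DESeq2's size factors (0.59) and without shScramble replicate 3 (0.61) or guide 1 replicate 3 (0.59).

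SRSF8 and SRSF9 went the other way. SRSF8, which arose as a retrocopy of SRSF2, had 126, 129 and 128 CPM in shScramble, 162, 167 and 179 with guide 2 and 105, 102 and 102 in the libraries labelled guide 1. SRSF9, a small relative of SRSF1, had 182, 199 and 191 CPM in shScramble, 282, 237 and 221 with guide 2 and 178, 148 and 159 in the libraries labelled guide 1. Neither differed from shScramble by the fold limit with either hairpin, but both were higher with guide 2 than in the libraries labelled guide 1, SRSF8 by 0.72 ± 0.046 (SE), adjusted p = 5.41e-14 and SRSF9 by 0.61 ± 0.093 (SE), adjusted p = 1.56e-04. Scaled by library size only, both calls were lost (0.58 for SRSF8 and 0.47 for SRSF9). SRSF9 had the largest SD in CPM of the SR proteins with guide 2, its call was also lost without guide 2 replicate 1 (0.51) or guide 1 replicate 2 (0.56), and 46.2% of its exon bases lie under GATC on the other strand, whose reads the counting may not have kept apart. The remaining SR proteins, SRSF2, SRSF3, SRSF6 and SRSF10, were called in no comparison and ranged from -0.49 (SRSF6) to 0.28 (SRSF3) with guide 2 and from -0.28 (SRSF6) to 0.55 (SRSF2) in the libraries labelled guide 1. SRSF2 shares 36.7% of its exon bases with MFSD11 on the other strand. TRA2A and TRA2B, which bind GAA-rich enhancers beside SR proteins, had 0.047 and -0.047 with guide 2 and 0.39 and 0.38 in the libraries labelled guide 1, and neither was called.

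**Figure D3:**
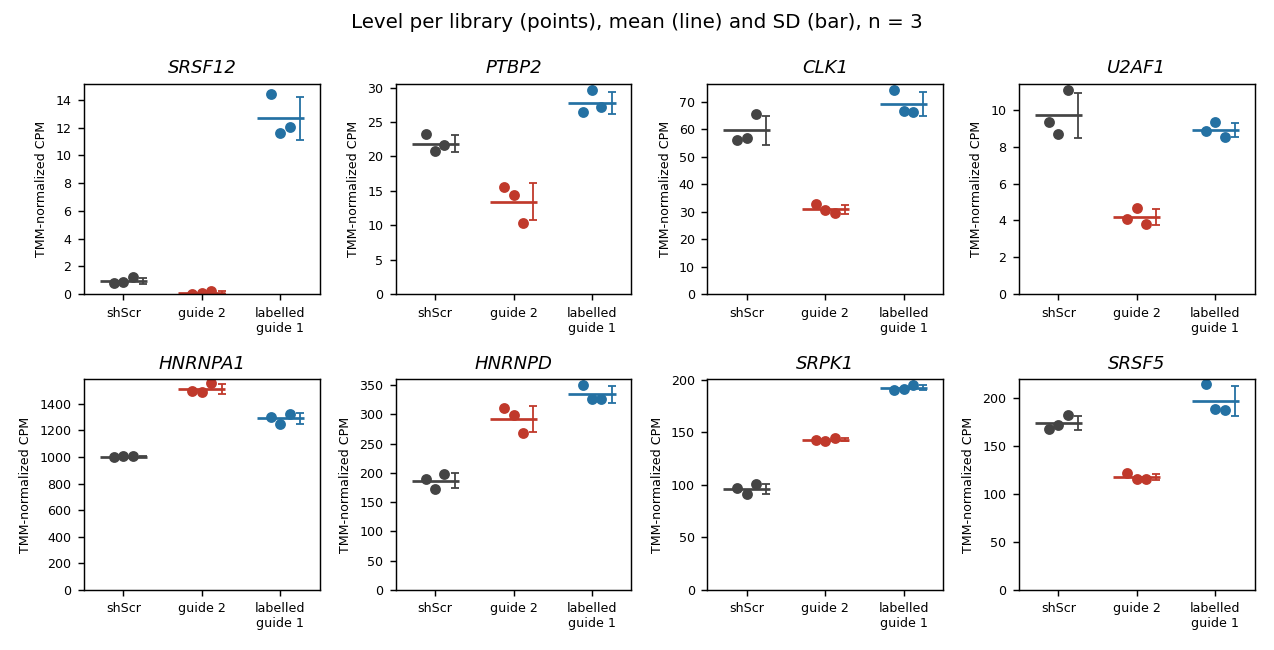
Level in each library in TMM-normalized CPM (y axis) of 8 members for shScramble, guide 2 and the libraries labelled guide 1, with the mean and SD of 3 libraries. SRSF12, PTBP2, CLK1, U2AF1 and SRSF5 are lowest with guide 2, and HNRNPA1 is highest there at 1514 CPM.

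Of the SR kinases CLK1 and SRPK1, CLK1 was lowered with guide 2 and SRPK1 was not called. CLK1, a nuclear kinase that releases SR proteins from speckles, had 1738, 1817 and 1498 counts in shScramble, 753, 769 and 649 with guide 2 and 2121, 1856 and 1989 in the libraries labelled guide 1, or 59.6 ± 5.20, 30.9 ± 1.62 and 69.2 ± 4.49 CPM (SD, n = 3). Every guide 2 library lay below every other library. CLK1 fell with guide 2 (-0.94 ± 0.065 (SE), adjusted p = 1.51e-12) and its value in the libraries labelled guide 1 was under the fold limit (0.22 ± 0.061 (SE), adjusted p = 0.0023).

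SRPK1, which phosphorylates SR proteins in the cytoplasm before they enter the nucleus, had 96.5, 91.1 and 100.3 CPM in shScramble, 142, 142 and 144 with guide 2 and 190.3, 191 and 195 in the libraries labelled guide 1. The 3 groups did not overlap. It was raised in the libraries labelled guide 1 (1.00 ± 0.045 (SE), adjusted p = 3.03e-17), whereas the guide 2 value of 0.57 ± 0.046 (SE), adjusted p = 1.87e-11, lay just under the fold limit. Within each library CLK1 had 58.2, 62.6 and 65.4 counts per 100 counts of SRPK1 in shScramble, 23.0, 21.6 and 20.4 with guide 2, and 39.1, 34.9 and 34.1 in the libraries labelled guide 1. This ratio, which needs no scaling between libraries, was lower with guide 2 than in either other group in every library.

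**Figure D4:**
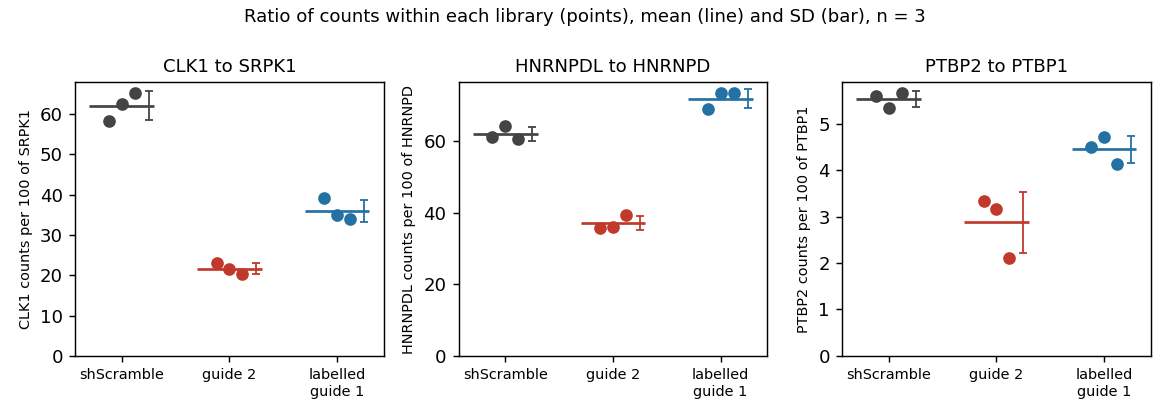
Counts of CLK1 per 100 of SRPK1, of HNRNPDL per 100 of HNRNPD and of PTBP2 per 100 of PTBP1 within each library, with the mean and SD of 3 libraries in each group. In all 3 panels the guide 2 libraries are the lowest, with means of 21.6, 37.1 and 2.88 against 62.1, 62.1 and 5.55 in shScramble.

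Of the 17 hnRNP genes, 2 were called with guide 2 and 5 in the libraries labelled guide 1, and all of these were raised. These are 11.8% and 29.4% of the hnRNPs, against 29.3% and 37.7% of all tested genes called in either direction and 8.85% and 21.2% raised. HNRNPA1, which silences exons and is the most abundant member, had 999, 1007 and 1006 CPM in shScramble, 1497, 1489 and 1557 with guide 2 and 1303, 1246 and 1323 in the libraries labelled guide 1. The groups did not overlap. It was raised with guide 2 (0.59 ± 0.047 (SE), adjusted p = 1.98e-11) only just past the fold limit, and the call was lost in 5 of 18 alternatives, with values from 0.44 to 0.59 (0.58 without guide 2 replicate 3). Among the 18 is the adjusted p alone, which cannot lose a call. Its 74 annotated copies in the genome together held 0.777% of the reads counted for gene and copies.

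HNRNPD, also called AUF1, which binds AU-rich elements and affects mRNA decay, was the only member raised with both hairpins. It had 190.2, 172 and 198 CPM in shScramble, 311, 298 and 267 with guide 2 and 351, 326 and 326 in the libraries labelled guide 1. Every shScramble library was below all others, with 0.65 ± 0.057 (SE), adjusted p = 5.41e-10, for guide 2 and 0.84 ± 0.057 (SE), adjusted p = 1.76e-12, for the libraries labelled guide 1. With library size alone its guide 2 value was 0.50, under the fold limit. The guide 2 call was also lost in a test against the 1.5-fold limit itself (adjusted p = 0.201). The share of all tested genes raised in both comparisons was not worked out. HNRNPDL, its closest relative, had 116, 111 and 120.0 CPM in shScramble, 112, 108 and 106 with guide 2 and 242, 239.5 and 239 in the libraries labelled guide 1. HNRNPDL rose in the libraries labelled guide 1 (1.05 ± 0.045 (SE), adjusted p = 6.79e-18) and overlapped shScramble with guide 2 (-0.097). HNRNPDL thus stood at 62.1 ± 2.03 counts per 100 of HNRNPD in shScramble, 37.1 ± 2.04 with guide 2 and 72.0 ± 2.58 in the libraries labelled guide 1 (SD, n = 3).

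HNRNPAB, a relative of HNRNPD, had 162, 161 and 175 CPM in shScramble, 249, 228 and 239 with guide 2 and 359, 302 and 332 in the libraries labelled guide 1. It was raised in the last group (1.00 ± 0.055 (SE), adjusted p = 1.20e-14), and the value with guide 2 was 0.52, under the fold limit. HNRNPUL1, related to the nuclear scaffold protein HNRNPU, had 186, 188 and 186 CPM in shScramble, 215, 203 and 213 with guide 2 and 329, 324 and 341 in the libraries labelled guide 1, where it was raised (0.83 ± 0.044 (SE), adjusted p = 8.85e-16).

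The F and H group, whose proteins bind runs of G, split in the comparison of the hairpins. HNRNPF had 432, 440.1 and 456 CPM in shScramble, 585, 577 and 585 with guide 2 and 362, 339 and 352 in the libraries labelled guide 1, and was higher with guide 2 than in the latter (0.73 ± 0.045 (SE), adjusted p = 2.07e-14). HNRNPH1 ran in the opposite order, at 492, 512 and 533 CPM in shScramble, 401, 407 and 374 with guide 2 and 719, 667 and 658 in the libraries labelled guide 1, and was lower with guide 2 than in the libraries labelled guide 1 (-0.79 ± 0.050 (SE), adjusted p = 3.03e-14). Neither was called against shScramble. HNRNPH3 had 146, 152 and 160.2 CPM in shScramble, 152, 153 and 150.4 with guide 2 and 299, 257 and 279.8 in the libraries labelled guide 1, where it was raised (0.87 ± 0.050 (SE), adjusted p = 8.35e-15) while its guide 2 values overlapped shScramble.

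The other hnRNP genes, HNRNPA0, HNRNPA3, HNRNPH2, HNRNPK, HNRNPL, HNRNPM, HNRNPR, HNRNPU and HNRNPUL2, were called in no comparison. Their log2 fold changes ran from 0.036 (HNRNPUL2) to 0.43 (HNRNPA0) with guide 2 and from -0.14 (HNRNPH2) to 0.57 (HNRNPA3) in the libraries labelled guide 1. HNRNPK, which binds runs of C and was the second most abundant member per length, had 937 ± 21.3, 966 ± 6.88 and 1113 ± 33.5 CPM (SD, n = 3). HNRNPUL2 shares 44.5% of its exon bases with a read-through gene on its own strand, and its values cannot be separated from that transcript. HNRNPH2 shares 16.3% of its exon bases with the read-through gene RPL36A-HNRNPH2 on its own strand.

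The polypyrimidine tract binding proteins repress exons flanked by pyrimidine-rich sequence, and PTBP2 is the form that replaces PTBP1 in maturing neurons. PTBP2 had 719, 663 and 494 counts in shScramble, 358, 361 and 229 with guide 2 and 756, 824 and 812 in the libraries labelled guide 1, or 21.9 ± 1.24, 13.4 ± 2.70 and 27.8 ± 1.65 CPM. The groups did not overlap, and PTBP2 fell with guide 2 (-0.70 ± 0.10 (SE), adjusted p = 4.24e-06). Guide 2 replicate 3 was the lowest library, and without it the value was -0.55 and no longer past the fold limit. The call was also lost in a test against the 1.5-fold limit itself (adjusted p = 0.196).

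PTBP1 had 414, 389 and 380.4 CPM in shScramble, 464, 454 and 489 with guide 2 and 589, 626 and 655 in the libraries labelled guide 1, where it was raised (0.66 ± 0.050 (SE), adjusted p = 2.77e-12). PTBP3 had 92.6, 88.2 and 90.6 CPM in shScramble, 130.2, 137 and 135 with guide 2 and 138, 146 and 142 in the libraries labelled guide 1. It was raised in the libraries labelled guide 1 (0.65 ± 0.045 (SE), adjusted p = 3.56e-13) and lay just under the fold limit with guide 2 (0.57). The call of PTBP1 and PTBP3 was lost in the test against the 1.5-fold limit itself (adjusted p = 0.0784 and 0.079). PTBP2 stood at 5.55 ± 0.178 counts per 100 of PTBP1 in shScramble, 2.88 ± 0.662 with guide 2 and 4.46 ± 0.298 in the libraries labelled guide 1 (SD, n = 3).

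Of the proteins that recognise the 3′ splice site, U2AF1 alone was called. U2AF1, the small U2AF subunit that contacts the terminal AG of the intron, had 290, 278 and 253 counts in shScramble, 94, 117 and 84 with guide 2 and 252, 260 and 256 in the libraries labelled guide 1. It fell with guide 2 (-1.20 ± 0.13 (SE), adjusted p = 3.62e-09), where every library lay below all others, and was close to shScramble in the libraries labelled guide 1 (-0.12 ± 0.11 (SE), adjusted p = 0.354). This gene has a near-identical second locus in the genome build. Reads that match both loci cannot be placed at one of them, and how the counting treated such reads is not given in the sources used here. In the authors' annotation U2AF1 lies at chr21:43092956-43107587 and the copy at chr21:6484623-6499261, both on the minus strand, and 88.3% of 100-base windows of the U2AF1 exons occur unchanged in the copy. A stretch of an annotated exon in which they differ by 1 base is shown to make plain how close the loci are, with the differing base in capitals.
U2AF1, chr21:43105084-43105143: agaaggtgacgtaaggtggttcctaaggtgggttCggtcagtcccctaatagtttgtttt
copy, chr21:6496762-6496821: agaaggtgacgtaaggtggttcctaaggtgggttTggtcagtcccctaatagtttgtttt
The difference is C35T, counted from 1 at the 5′ end of the shown stretch, with the base of U2AF1 first. The copy itself had 13, 12 and 13 counts, 8, 2 and 1 and 46, 50 and 79 in the same order of groups. The value of U2AF1 may therefore describe only part of the reads of this gene. Without U2AF1, 5 of 42 members were called with guide 2.

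Its partner U2AF2, which binds the polypyrimidine tract, had 257, 263 and 267 CPM in shScramble, 359.6, 345 and 356 with guide 2 and 266, 255 and 257 in the libraries labelled guide 1, and was not called (0.43 and -0.015). SF3B1, the branch point factor of the U2 snRNP, had 282, 294 and 290.3 CPM in shScramble, 283, 275 and 285 with guide 2 and 274, 289 and 287 in the libraries labelled guide 1 and was the only member that passed the adjusted p in none of the 3 comparisons. Its log2 fold change was -0.042 ± 0.044 (SE), adjusted p = 0.41, with guide 2 and -0.030 ± 0.043 (SE), adjusted p = 0.55, in the libraries labelled guide 1.

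Of the 4 tissue-restricted or signal-dependent regulators, QKI and RBFOX2 were lower with guide 2 than in the libraries labelled guide 1, which is 50% against 47.3% of all tested genes called, and KHDRBS1 (-0.37) and MBNL1 (0.40) were not called there. QKI, which promotes mesenchymal splice forms and the making of circular RNAs, had 56.4, 52.7 and 55.0 CPM in shScramble, 41.1, 41.1 and 40.6 with guide 2 and 157, 149 and 151 in the libraries labelled guide 1. The 3 groups did not overlap. QKI was raised in the libraries labelled guide 1 (1.48 ± 0.047 (SE), adjusted p = 1.23e-20) and its value with guide 2, -0.42 ± 0.050 (SE), adjusted p = 4.69e-08, was under the fold limit. RBFOX2, which binds UGCAUG beside exons, had 74.3, 70.8 and 69.2 CPM in shScramble, 78.7, 73.7 and 74.6 with guide 2 and 128, 135 and 133 in the libraries labelled guide 1. RBFOX2 rose in the libraries labelled guide 1 (0.88 ± 0.047 (SE), adjusted p = 1.33e-15) and overlapped shScramble with guide 2.

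KHDRBS1, known as Sam68, an RNA-binding target of Src-family kinases, had 195, 189 and 188 CPM in shScramble, 239, 228 and 236 with guide 2 and 284, 307 and 319 in the libraries labelled guide 1, where it was raised (0.67 ± 0.047 (SE), adjusted p = 5.16e-13). MBNL1, which favours adult splice forms in muscle and heart, was called in no comparison (0.35 with guide 2 and -0.050 in the libraries labelled guide 1), and 15.6% of its exon bases lie under genes on the other strand.

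QKI and RBFOX2 were set beside ESRP1 and ESRP2, the regulators of epithelial splice forms, which were picked for this after their values were seen. ESRP1 had 166, 169 and 173 CPM in shScramble, 122, 117 and 122 with guide 2 and 77.9, 87.1 and 86.9 in the libraries labelled guide 1, and fell in the last group (-1.01 ± 0.048 (SE), adjusted p = 1.02e-16). ESRP2 had 82.8, 86.9 and 81.6 CPM in shScramble, 76.6, 74.7 and 71.5 with guide 2 and 33.5, 40.1 and 35.4 in the libraries labelled guide 1 and fell in the last group as well (-1.21 ± 0.058 (SE), adjusted p = 1.20e-16). In counts per 100 of ESRP1, QKI stood at 32.3 ± 1.49 in shScramble, 34.0 ± 0.870 with guide 2 and 182 ± 16.8 in the libraries labelled guide 1, and RBFOX2 at 42.2 ± 2.35, 62.8 ± 1.53 and 157 ± 6.25 (SD, n = 3). The summed luminal markers were lower and VIM higher in the libraries labelled guide 1. COL1A1 was lower there (-1.04). The other fibroblast markers looked at, COL1A2 and DCN, were at or under the floor of 3 counts in all 9 libraries. The part of any of these markers in the ratios was not tested.

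**Figure D5:**
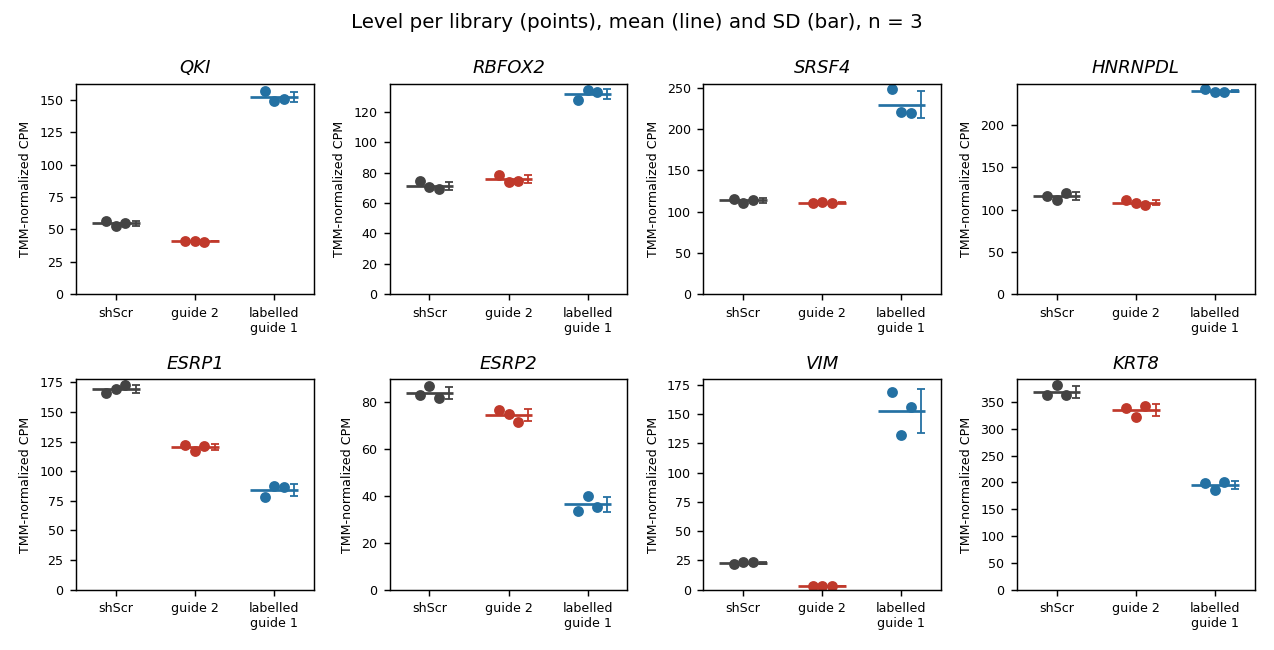
Level in each library in TMM-normalized CPM (y axis) of QKI, RBFOX2, SRSF4, HNRNPDL, the epithelial regulators ESRP1 and ESRP2, and the markers VIM and KRT8, with the mean and SD of 3 libraries. The 4 members and VIM are highest in the libraries labelled guide 1, where ESRP1, ESRP2 and KRT8 are lowest.

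Other genes of the splicing machinery, 103 in 5 lists, were set beside the members. Of the 100 that could be tested, 9 were raised and 11 lowered with guide 2 (4 and 13 when scaled by library size only), against 8.85% and 20.4% of all tested genes. In the libraries labelled guide 1, 20 were raised and 6 lowered, against 21.2% and 16.5% of all tested genes. In the direct comparison 9 were higher and 22 lower with guide 2 (6 and 30 when scaled by library size only), against 19.1% and 28.2%. The median log2 fold change of the 100 was 0.19 with guide 2 and 0.25 in the libraries labelled guide 1. SRRM4, RBFOX1 and KHDRBS2 had too few counts to test. Among the Sm, LSm and snRNP proteins, the core of the spliceosomal particles, 6 of 26 were called with guide 2, all of them raised and led by SNRPD3 (0.98 ± 0.051 (SE), adjusted p = 4.19e-15), LSM3 (0.89) and SNRPN (0.77). That is 23.1% called, against 29.3% of all tested genes in either direction and 8.85% raised. Only 4 of the 100 were raised when scaled by library size only, so not all of these 6 calls hold under that scaling. Of 9 other SF3A and SF3B subunits, SF3A3 alone was raised with guide 2 (0.83 ± 0.044 (SE), adjusted p = 4.12e-15), which is 11.1% against 8.85% of all tested genes raised.

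Of 30 tri-snRNP, PRP19-associated and helicase genes, 1 was raised and 2 lowered with guide 2, namely PRPF4 (0.71), PRPF3 (-0.80) and PRPF39 (-0.66). That is 10% called, against 29.3% of all tested genes. Of 18 genes tested on the list of other SR kinases and SR-related proteins, 3 were called with guide 2, all of them lowered. That is 16.7%, against 20.4% of all tested genes lowered. They were CLK4 (-0.81 ± 0.088 (SE), adjusted p = 7.50e-09), SRPK3 (-0.68) and TIA1 (-0.62). TIA1 is on this list but is neither an SR kinase nor an SR protein. CLK4, the nearest relative of CLK1, thus fell beside it. Among 17 other tissue regulators 1 was raised and 6 lowered with guide 2, or 41.2% called against 29.3% of all tested genes. The libraries labelled guide 1 had 7 raised and 3 lowered, or 58.8% called against 37.7% (21.2% raised and 16.5% lowered). The neuronal and muscle regulators MBNL2, NOVA2 and CELF2 were lowered with guide 2 (-4.27, -2.73 and -1.32) and raised in the libraries labelled guide 1 (4.15, 1.73 and 1.26). Such opposite calls were made for 9.18% of all tested genes. MBNL2 had 2, 1 and 1 counts with guide 2, all under the floor, so its fitted value there depends on the prior count. By summed counts, 101 in shScramble and 4 with guide 2, its log2 ratio of shScramble to guide 2 was 4.52 (95% exact interval 3.12 to 6.42, counting error only).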

How the data were processed

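RNA-seq of 9 LNCaP:C4-2 libraries was used, 3 in each group, assigned from the sample titles. The authors trimmed adapters with Trim Galore and cutadapt, aligned reads to GRCh38 with STAR and deposited raw counts per gene from featureCounts, without normalization or pooling. Strand setting and treatment of reads matching several genes are not given in the sources used here. Symbols were found for 56558 of 60675 genes (93.2%), and 0 members lacked one.

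Counts were tested with edgeR (version 4.0.16, R 4.3.3): TMM factors, the filterByExpr function for low counts (at least 10 in enough libraries, 15 in total; 19278 genes kept), and a robust quasi-likelihood F test with all 9 libraries in 1 fit and no covariates. P-values were adjusted by Benjamini-Hochberg over all tested genes, and calls needed both an adjusted p below 0.05 and a 1.5-fold change. The standard error is the log2 fold change divided by the square root of F. Exact tests of single genes were not used, as 3 libraries against 3 cannot go below p = 0.1. On simulated counts, 200 of 18864 genes were changed 2-fold with guide 2, equally up and down and with 1 spread for all genes. Of these, 194 were called for guide 2 against shScramble, with 2 unchanged genes called. In the real libraries 29.3% of tested genes were called with guide 2, more of them lowered than raised. The simulation therefore does not show how the scaling, or calls near the 1.5-fold limit, behave in these data. DESeq2 (1.42.0) and other settings were tried as alternatives. The floor is 3 counts.

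Members and lists were chosen with earlier results of these data known. All members were accounted for, and those called in any comparison are given with values in every library. In the other lists at most 3 genes called with guide 2 are named, by size of change. Genes named beyond this are marked in the text. Hairpin seeds were searched in the 3′ untranslated regions of GENCODE canonical transcripts. Upstream regions are from RefSeq (GRCh38.p14), which matched 38 of 43 members.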

Additional observations from a re-analysis of the deposited data

Results flagged for a closer look

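Levels of 17 members differed in the direct test of guide 2 against the libraries labelled guide 1, made in the fit of all 9 libraries (edgeR's quasi-likelihood test, Benjamini-Hochberg adjusted over all tested genes). The values that follow are log2 fold changes of that comparison. Among SR proteins they were SRSF12 (-7.14), SRSF4 (-1.05), SRSF11 (-0.92), SRSF5 (-0.74), SRSF1 (-0.71), SRSF8 (0.72) and SRSF9 (0.61). Among hnRNPs they were HNRNPDL (-1.15), HNRNPH3 (-0.88), HNRNPH1 (-0.79), HNRNPUL1 (-0.66) and HNRNPF (0.73). The others were QKI (-1.90), CLK1 (-1.16), U2AF1 (-1.09), PTBP2 (-1.04) and RBFOX2 (-0.80). With 0, 1 and 5 counts of SRSF12 with guide 2, its value ran from -8.96 (without guide 2 replicate 3) to -6.58 (without guide 2 replicate 1) when 1 library was left out, and the log2 ratio of summed counts, libraries labelled guide 1 to guide 2, was 7.35 (95% exact interval 6.22 to 8.80, counting error only). The calls of SRSF8 and SRSF9 were lost when scaled by library size only. SRSF9 had the largest adjusted p of the 17, 1.56e-04. Of all tested genes 47.3% were called in this comparison. METTL3 itself differed (-0.86), the summed luminal and mesenchymal markers did not overlap, and the part of either in these differences was not tested.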

How the results depend on the processing

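Of 38 calls of single members, 30 were kept in all 18 alternatives and none was reversed. Among the 18 is the adjusted p alone, which cannot lose or reverse a call. With guide 2, 4 to 8 members were called when each library was left out in turn, against 15 to 16 in the libraries labelled guide 1 and 16 to 17 between the hairpins. The other lists gave 18 to 22, 24 to 27 and 30 to 33. A test against the 1.5-fold limit (glmTreat) left 3 members and 11 genes of the other lists with guide 2. The calls of HNRNPA1, HNRNPD and PTBP2 were lost in it (adjusted p = 0.646, 0.201 and 0.196), so neither raised call was kept. The share of all tested genes called by it was not worked out. By the adjusted p alone 32, 37 and 40 members and 84, 83 and 81 genes of the other lists passed. Without guide 2 replicate 3 the guide 2 count was 4, as the calls of PTBP2 (-0.55) and HNRNPA1 (0.58) were lost. Without shScramble replicate 1 or guide 2 replicate 1 it was 8, as SRSF5 (-0.59 in both) and PTBP3 (0.59 in both) were called. Direction of the small guide 2 value of SRSF1 turned with library size alone (0.15 to -0.0015), as did that of HNRNPR between the hairpins (0.13 to -0.010). The share of counts on members was 1.07%, 1.08% and 1.38% (shScramble, guide 2, labelled guide 1) without mitochondrial genes and 0.901%, 0.894% and 1.18% without HNRNPA1.

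Libraries with the same replicate number shared no more than the number (correlation of deviations -0.098 to 0.053), and the replicate block changed no count of member calls (6, 15 and 17) nor of the other lists (20, 26 and 31). At this depth the limit is SRSF12 with guide 2, with 0 to 5 counts, and U2AF1, whose reads may be shared between loci. Overlap with other genes, on either strand, covered over 10% of the exon bases of SRSF1, SRSF2, SRSF9, HNRNPH2, HNRNPUL2 and MBNL1.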

Other observations

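The muscleblind genes, of which MBNL1 is a member, differed from each other. MBNL1 stood at 99.1 ± 1.74 CPM in shScramble, 126 ± 3.47 with guide 2 and 95.7 ± 4.13 in the libraries labelled guide 1 (SD, n = 3). MBNL3, chosen after its values were seen, stood at 29.6 ± 0.552, 25.6 ± 1.78 and 51.7 ± 0.950 CPM and was raised in the libraries labelled guide 1 (0.80 ± 0.059 (SE), adjusted p = 1.64e-12 in edgeR's quasi-likelihood test). MBNL2 stood at 1.20 ± 0.214, 0.0573 ± 0.0256 and 21.1 ± 0.924 CPM. ESRP2 stood at 49.5 ± 2.03, 61.7 ± 2.56 and 43.3 ± 2.59 counts per 100 of ESRP1 in the same order of groups.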
